A study of Homo sapiens with 8 samples.

Results

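The 9 genes described here encode the enzymes that make acetyl-CoA available to fatty acid synthesis (ACLY, ACSS2), build the chain (ACACA, FASN), lengthen it (ELOVL5, ELOVL6) and add double bonds to it (SCD, FADS1, FADS2). They were listed by symbol, and a probe belonged to a gene when the accession in the array files mapped to that symbol. The array held 15 probes for 8 of these genes, out of 41000 probes in all. No probe accession matched ACLY, so ACLY was not analysed here. Of the 15 probes, 14 passed the filter on dim probes, which kept 26046 probes, and 8 genes were read among 20317 gene names tested.

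On 8 two-color whole-genome arrays, gene expression was set against parental H460 RNA for CSCs (H460C) and for cells resistant to cisplatin (H460R), to find genes regulated in either population. H460 is an established non-small cell lung cancer line. H460 and H460R cells were kept in RPMI with foetal bovine serum, and H460R cells were the survivors of 0.5 µg/ml cisplatin given for 72 h, grown without the drug afterward. H460C cells grew from H460 as nonadherent spheres in DMEM/F12 without serum, with glutamine, Hepes, BSA, N2 supplement, EGF and FGF-b. The media therefore differed between H460C and both other cell types, and medium, adhesion and population cannot be told apart. All RNA came from 1 cell line, and the arrays read bulk RNA, in which fewer cells of a type and less RNA per cell cannot be told apart.

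Each population had 2 RNA samples, each hybridized on 2 arrays with the dyes swapped against H460 RNA, which the labels name as 1 sample. Each value is a log2 ratio to H460, so that 1 means a doubled signal. Against H460, limma tested the ratio against 0 and Rank Products tested its rank among all probes. Any spread of H460 itself is therefore not in the tests. In each channel 22834 to 28499 probes were clearly above background, and both dye orientations of a replicate correlated, over probes, with r of 0.577 to 0.748. Replicate differences seen in 1 dye orientation recurred in the other with r = 0.268 for H460R (25745 probes) and with r = -0.0107 for H460C (24642 probes). No difference between the H460C replicates was therefore seen to recur across dyes, a check that was not made without either Cy5 array. For this reason H460C is given as 1 sample, without SD, whereas H460R values are mean ± SD (n = 2). The tests nonetheless took the H460C ratios as 2 samples, and their FDR, SE and p-values hold no spread between H460C cultures. H460C arrays were on 1 slide and H460R arrays on another, and slide and population cannot be told apart. In the ratios used here, the 2 Cy5 arrays of H460C differed by over 0.6 at 741 of 25590 probes, compared to 14 of 25042 between the Cy3 arrays. In H460R the Cy5 arrays did so at 244 of 25787 probes and the Cy3 arrays at 96 of 26004. These counts do not tell which array of a pair was the odd one, and they were not made with other processing. KRT8, KRT18, KRT19 and VIM, defining markers of the line, were well above background in every channel, while CDH1 was so in the 4 H460C channels and in no other. CDH2 was so in 4 H460C, 2 of 4 H460R and 0 of 8 H460 channels, EPCAM in 4, 3 and 7, and KRT7 in 0, 0 and 5. Of 11 markers of cells that the cultures should not hold, the leukocyte gene PTPRC and the hepatocyte gene ALB were above background in no channel, but SFTPC and CD14 were so in every channel. The endothelial gene PECAM1 was above background in the 4 H460C channels alone, but CDH5, of the same cells, was so in 0 H460C, 0 H460R and 1 of 8 H460 channels. The fibroblast gene DCN was so in 1 H460C, 4 H460R and 8 H460 channels, and COL1A2 in 1, 0 and 1. CD3E was so in 4, 4 and 6, and SFTPA1 in 3, 2 and 2. The part of these markers in the results was not tested.

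Fatty acids are built in the cytosol from acetyl-CoA, which ACLY releases from citrate and ACSS2 makes from acetate. ACACA carboxylates acetyl-CoA to malonyl-CoA, and FASN extends the chain to palmitate, which elongases and desaturases then modify. Transcription of the pathway is known to be driven by SREBP factors, which are activated when cells lack sterols or unsaturated fatty acids.

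Promoter windows of RefSeq (GRCh38.p14), from 250 bases before to 50 bases after a gene's start, were found for 8 of the 9 genes, in 13 windows, and not for FASN. The windows of the 4 genes with the highest H460C ratios are shown 5′ to 3′ on the gene's strand, because they belong to the largest values reported below. Capitals mark the CCAAT box (letters CCAAT) and the GC box (letters GGGCGG), both on either strand.
SCD, chr10:100346983-100347282, plus strand: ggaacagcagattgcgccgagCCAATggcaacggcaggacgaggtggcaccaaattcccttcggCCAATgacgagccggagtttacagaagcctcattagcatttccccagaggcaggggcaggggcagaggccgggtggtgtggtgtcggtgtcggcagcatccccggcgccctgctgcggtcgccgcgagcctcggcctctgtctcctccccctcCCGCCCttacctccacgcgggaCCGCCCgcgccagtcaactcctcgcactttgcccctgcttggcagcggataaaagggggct
FADS2, chr11:61816154-61816453, plus strand: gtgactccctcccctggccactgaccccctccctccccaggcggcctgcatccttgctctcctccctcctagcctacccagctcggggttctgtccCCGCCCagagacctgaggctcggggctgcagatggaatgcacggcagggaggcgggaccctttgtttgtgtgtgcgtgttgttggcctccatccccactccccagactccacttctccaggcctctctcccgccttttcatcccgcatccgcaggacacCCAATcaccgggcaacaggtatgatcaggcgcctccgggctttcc
FADS1, chr11:61816954-61817253, minus strand: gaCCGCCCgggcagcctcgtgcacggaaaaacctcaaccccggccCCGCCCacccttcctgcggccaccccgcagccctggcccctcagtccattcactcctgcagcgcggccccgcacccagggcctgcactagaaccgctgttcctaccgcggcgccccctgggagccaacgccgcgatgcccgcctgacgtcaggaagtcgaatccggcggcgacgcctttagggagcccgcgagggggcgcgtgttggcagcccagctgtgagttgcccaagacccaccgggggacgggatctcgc
ACSS2, chr20:34874739-34875038, plus strand: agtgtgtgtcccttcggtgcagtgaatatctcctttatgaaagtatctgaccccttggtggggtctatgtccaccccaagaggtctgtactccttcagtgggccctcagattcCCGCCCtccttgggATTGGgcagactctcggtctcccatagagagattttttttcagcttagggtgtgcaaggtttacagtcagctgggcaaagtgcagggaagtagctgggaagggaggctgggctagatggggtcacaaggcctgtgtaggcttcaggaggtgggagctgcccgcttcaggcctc
The SCD window held 2 CCAAT boxes and 2 GC boxes, the FADS2 and ACSS2 windows 1 of each, and the FADS1 window 2 GC boxes. FADS2 had another window, at chr11:61815953-61816252, that held neither. ACSS2 had another, at chr20:34876362-34876661, with 3 GC boxes.

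Across the 13 windows, 8 held CCAAT, in 6 of the 8 genes, compared to 34.6% of all 35116 windows. GGGCGG was in 10 of the 13, in 7 genes, compared to 45% of all windows. The E-box CACGTG was in the ELOVL5 window alone, compared to 7.26% of all. The sterol regulatory element core, written TCACNCCAC, was in 0 of the 13 windows and in 1.13% of all, which says only that these letters are not in these stretches. All motifs were searched on both strands and none contains another. Windows of 1 gene can overlap, so they are not independent, and a match is a description of the letters.

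In H460C, all 14 probes had a mean log2 ratio above 0, and 7 of them lay above 1. At the brightest probe of each gene, 8 of the 8 genes were above 0, compared to 50% of all gene names, with ELOVL5 at only 0.008. Above 1 were 3 of the 8 genes, compared to 4.99% of gene names. The highest were SCD at 3.37, FADS2 at 3.04 and ACSS2 at 2.73, on 1 probe of each gene. The FADS2 value came from Cy5 arrays with a saturated H460C channel and is a lower bound for those arrays alone. Its order against SCD is therefore not known. In H460R, the 14 means lay between -0.83 and 0.79, and 6 were above 0. At the brightest probes, 3 of the 8 genes were above 0 in H460R, compared to 51.2% of all gene names. Among the 8 genes, 5 had more than 1 of these probes, and the second FADS2 probe passed the filter through H460C alone. By Rank Products, the main test, 3 of the 14 probes rose in H460C, 1 each for SCD, FADS2 and ACSS2, compared to 0.492% of all probes, and 0 fell, compared to 0.442%. In H460R 0 of the 14 probes rose, compared to 0.48% of all, and 0 fell, compared to 0.445%. When each gene was read at its brightest probe, 1 of 8 genes rose in H460C (FADS2), compared to 0.556% of all gene names, and 0 fell, compared to 0.502%. In H460R 0 of 8 rose, compared to 0.487%, and 0 fell, compared to 0.492%. By limma, a more permissive test, 7 of the 8 genes were higher in H460C, with ELOVL5 as the exception, but so were 36.5% of all gene names, and 0 were lower, compared to 34.5%. In H460R, limma called 1 gene higher, compared to 36.5%, and 3 lower, compared to 32.5%. When limma required a log2 ratio beyond 1, it called 2 of the 8 genes higher in H460C (FADS2 and ACSS2), compared to 2.53%, and 0 lower, compared to 1.67%. In H460R it then called 0 higher, compared to 1.08%, and 0 lower, compared to 0.384%. The median of the 8 genes was 0.88 in H460C and -0.06 in H460R, beside -0.0002 and 0.01 over all gene names tested.

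**Figure D1:**
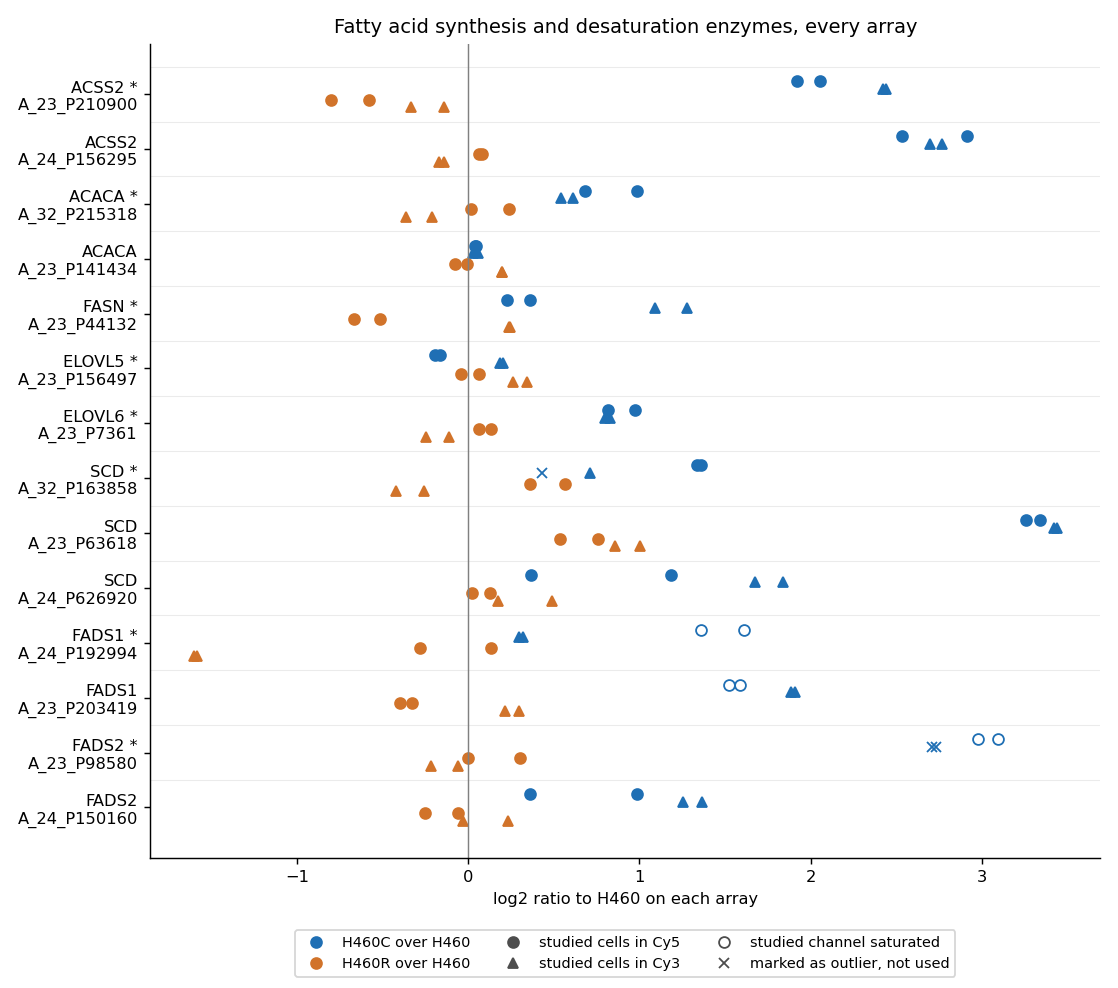
Log2 ratio to H460 (horizontal axis) of the 14 probes past the filter, on every array; blue is H460C, orange H460R, triangles and circles give the dye of the studied cells, open symbols a saturated channel and crosses unused outliers, and a star the brightest probe of the gene. The H460C points lie to the right of the H460R points for ACSS2, FADS1, FADS2, ELOVL6, the brightest ACACA probe and the SCD probe at 3.37. They also do so for the brightest SCD probe when its cross is left aside. They overlap for ELOVL5, FASN and the remaining ACACA and SCD probes.

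ACSS2, the cytosolic enzyme that makes acetyl-CoA from acetate, was among the highest in H460C. At its brightest probe (A_23_P210900, NM_018677), the log2 ratios were 2.43 and 1.92 on the arrays of H460C replicate 1, with H460C in Cy3 and in Cy5, and 2.44 and 2.06 on those of replicate 2. The H460R arrays gave -0.14 and -0.58 for replicate 1 and -0.34 and -0.80 for replicate 2, in the same order of dyes. All H460C values were above all H460R values, and both populations read lower with the studied cells in Cy5. The mean was 2.21 in H460C, or 4.63-fold, and Rank Products placed it just outside the threshold, with an FDR of 0.0518. The probe passed without the filter on dim probes (FDR 0.0329), with a stricter filter (0.0423) and on the Cy3 arrays alone (0.0491), and the gene did with its probes averaged (0.0323). In H460R the mean was -0.46 ± 0.15 (SD, n = 2), which limma called lower with an adjusted p of 0.00159 and Rank Products did not, with an FDR of 0.597.

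The second ACSS2 probe (A_24_P156295) gave 2.70, 2.54, 2.77 and 2.91 on the H460C arrays, in the same order. Its mean of 2.73, or 6.64-fold, passed Rank Products with an FDR of 0.0228. On the H460R arrays it gave -0.17, 0.06, -0.14 and 0.08, with a mean of -0.04 ± 0.02, so the lower H460R value of the first probe was not seen there (limma adjusted p = 0.571).

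ACACA, the acetyl-CoA carboxylase that commits acetyl-CoA to fatty acid synthesis, was read differently by its 2 probes. The brighter one (A_32_P215318, NM_198839) gave 0.54, 0.68, 0.61 and 0.98 in H460C and -0.36, 0.02, -0.21 and 0.24 in H460R. The groups did not overlap, and the H460C mean was 0.71, or 1.63-fold. The other probe (A_23_P141434) gave 0.06, 0.05, 0.03 and 0.04 in H460C and 0.19, -0.01, 0.20 and -0.08 in H460R, so that H460C lay within the H460R range. Neither passed Rank Products in H460C (FDR 0.543 and 1), and limma called the first (adjusted p = 0.000461) and not the second (adjusted p = 0.374).

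FASN, the synthase that assembles palmitate, had 1 probe (A_23_P44132, NM_004104), and its ratio depended on the dye. H460C gave 1.09 and 1.28 with H460C in Cy3 and 0.23 and 0.36 with H460C in Cy5. H460R gave 0.24 and 0.24 in Cy3 and -0.52 and -0.67 in Cy5. Within each dye, H460C was above H460R, but the ranges over both dyes overlapped. The H460C mean was 0.74, or 1.67-fold, with a Rank Products FDR of 0.512 and a limma adjusted p of 0.00018. The H460R mean was -0.18 ± 0.05 (SD, n = 2), which limma called lower with an adjusted p of 0.0323, but it was 0.24 on the Cy3 arrays alone and -0.59 on the Cy5 arrays alone. The limma call in H460R was also lost without either H460R replicate, with adjusted p of 0.096 and 0.215.

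The elongases differed from each other. ELOVL6, which lengthens palmitate and other saturated chains, gave 0.83, 0.81, 0.80 and 0.98 on the H460C arrays (A_23_P7361, NM_024090) and -0.25, 0.07, -0.12 and 0.13 on the H460R arrays. The groups did not overlap, and the H460C mean of 0.85, or 1.81-fold, had a Rank Products FDR of 0.427 and a limma adjusted p of 7.5e-05. The H460R mean was -0.04 ± 0.07. ELOVL5, which lengthens polyunsaturated chains, gave 0.20, -0.19, 0.19 and -0.16 in H460C (A_23_P156497, NM_021814), with a mean of 0.01, and 0.34, -0.04, 0.26 and 0.06 in H460R, with a mean of 0.16 ± 0.01. The ELOVL5 groups overlapped, and both read higher with the studied cells in Cy3. Limma called ELOVL5 higher in H460R (adjusted p = 0.0148), a call that was lost without replicate 1 (adjusted p = 0.0535) and without replicate 2 (adjusted p = 0.0681) of H460R. The other ELOVL5 probe did not pass the filter, as the studied cells were above background on 4 of 8 arrays and H460 on 2.

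SCD, which places the first double bond in saturated chains, had 3 probes (NM_005063), all higher in H460C than in H460 but by unequal amounts. The probe with the highest ratio (A_23_P63618) gave 3.44, 3.26, 3.42 and 3.34 in H460C, with little difference between dyes, and 0.86, 0.54, 1.00 and 0.76 in H460R. Its H460C mean of 3.37, or 10.3-fold, passed Rank Products with an FDR of 0.00569. Its H460R mean was 0.79 ± 0.13 (SD, n = 2), called higher by limma (adjusted p = 0.00019) and not by Rank Products (FDR 0.429).

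The brightest SCD probe (A_32_P163858), by which the gene was counted, gave 1.34, 0.71 and 1.36 in H460C, since the Cy3 spot of replicate 1 was marked as an outlier. On the H460R arrays it gave -0.42, 0.36, -0.26 and 0.57. Its means were 1.19 in H460C, with an FDR of 0.26, and 0.06 ± 0.13 in H460R. The marked spot read 0.43, and with it kept the H460C mean was 0.96. Without it, H460C replicate 1 rested on Cy5 alone, and H460R at this probe read -0.34 in Cy3 and 0.46 in Cy5. The other SCD probe (A_24_P626920) gave 1.67, 0.37, 1.84 and 1.18 in H460C, where the low value came from the Cy5 array of replicate 1. On the H460R arrays it gave 0.18, 0.02, 0.49 and 0.12. Its means were 1.27 and 0.20 ± 0.15, and its H460C FDR was 0.237. The extraction software's own ratios in H460C were 2.22, 1.64, 2.36 and 2.03, and in H460R 0.40, -0.08, 0.73 and 0.11. The authors' table gave 1.43, 0.78, 1.60 and 0.98 in H460C, so the size of that low value depended on the processing.

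FADS1 and FADS2, the desaturases of the polyunsaturated pathway, lie next to each other on chromosome 11, as the windows above show. At the brightest FADS1 probe (A_24_P192994, NM_013402), H460C gave 0.32 and 0.29 in Cy3 and 1.36 and 1.61 in Cy5, the latter with the H460C channel saturated. H460R gave -1.61 and -1.58 in Cy3 and -0.28 and 0.13 in Cy5. The dyes therefore gave unequal sizes, and the H460R value was far below 0 in 1 orientation alone. The means were 0.90 in H460C (FDR 0.398), of which the 2 saturated arrays give only a bound, and -0.83 ± 0.15 (SD, n = 2) in H460R, which limma called lower (adjusted p = 0.00026) and Rank Products did not (FDR 0.23).

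The other FADS1 probe (A_23_P203419) gave 1.89, 1.59, 1.91 and 1.52 in H460C, with the Cy5 channel saturated as well, and 0.21, -0.33, 0.30 and -0.40 in H460R. Its H460C mean was 1.73, or 3.31-fold, in which the 2 saturated arrays give only a lower bound, with an FDR of 0.114 and a limma adjusted p of 1.43e-05. Its H460R mean was -0.05 ± 0.01, so the lower value of the first probe was not seen at this one.

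FADS2 was the gene that Rank Products called at its brightest probe (A_23_P98580, NM_004265). The arrays with H460C in Cy5 gave 2.98 and 3.10, both with a saturated H460C channel, and the Cy3 spots were marked as outliers and not used. Those marked spots read 2.74 and 2.71. With both used spots saturated, the mean of 3.04 is a lower bound for these arrays (at least 8.22-fold). It passed with an FDR of 0.0132 and rested on the 2 Cy5 arrays, which differed at more probes than the Cy3 arrays. Without the Cy5 array of replicate 1, or with saturated spots set to missing, at least 1 replicate had no ratio left and the test could not be made. The Rank Products call was also lost with the software's own log ratio (mean 3.03, FDR 0.0882) and with both FADS2 probes averaged (mean 2.02, FDR 0.0694). The H460R arrays gave -0.22, -0.003, -0.06 and 0.30, with a mean of 0.01 ± 0.16 (SD, n = 2). The second FADS2 probe (A_24_P150160) gave 1.25, 0.36, 1.36 and 0.99 in H460C, with a mean of 0.99 and an FDR of 0.354. On the H460R arrays it gave -0.03, -0.06, 0.23 and -0.25, around 0. At this probe the software's own ratios were 1.87, 1.85, 2.01 and 2.00 in H460C and 0.14, -0.65, -0.18 and -0.65 in H460R. Its H460C size therefore depended on the processing, and the alternative settings did not test this probe by itself.

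In the authors' processed table, where the normalization is not given in the sources used here, the H460C means of the 8 brightest probes ran from -0.05 (ELOVL5) to 2.74 (FADS2), and the H460R means from -0.89 (FADS1) to 0.10 (ELOVL5). The SCD probe at 3.37 read 3.30 there, and FASN read 0.67 in H460C and -0.25 in H460R.

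The populations were then compared with each other by limma on the 4 ratios, which measures whether a gene's ratio to H460 differs between them. In H460C, 7 of the 8 genes had the higher ratio and 0 the lower one, compared to 28% and 27.9% of all gene names. By probe, 12 of the 14 were higher and 0 lower, compared to 27.9% and 27.2% of all probes. The second FADS2 probe is among the 12 and passed the filter through H460C alone, as it was above background in 3 of 4 H460R and 7 of 8 H460 channels. With a minimum difference of 1, limma called 3 of the 8 higher (ACSS2, FADS1 and FADS2), compared to 1.28%, and 0 lower, compared to 2.11%. The difference was 3.03 for FADS2 (SE 0.096, adjusted p = 6.72e-05), 2.68 for ACSS2 (SE 0.087, adjusted p = 6.72e-05) and 1.73 for FADS1 (SE 0.093, adjusted p = 0.000173). The FADS2 difference set H460C in Cy5 alone, with saturated channels, against H460R in both dyes. H460R read -0.14 in Cy3 and 0.15 in Cy5 at this probe, so 3.03 is not a lower bound over both dyes. The second FADS2 probe differed by 1.02 (SE 0.13). Because of the saturated H460C channels, the FADS1 difference is a lower bound on the Cy5 arrays.

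For SCD the difference was 1.13 (SE 0.12) at the brightest probe and 2.58 (SE 0.079) at the probe with the highest ratio. The first of these was not balanced over dyes, as H460C replicate 1 was read in Cy5 alone. FASN differed by 0.92 (SE 0.077), ELOVL6 by 0.90 (SE 0.065) and ACACA by 0.78 (SE 0.097), with adjusted p of 0.000553, 0.000378 and 0.00186. The ELOVL5 difference was -0.15 (SE 0.054), with an adjusted p of 0.0641, and the second ACACA probe differed by -0.03 (SE 0.055, adjusted p = 0.623). By limma, the level in H460C was above those in H460R and H460 for 7 genes. Between H460R and H460, limma called 1 gene higher and 3 lower in H460R, compared to 36.5% and 32.5% of all gene names. Rank Products called 1 of 8 genes higher over H460 in H460C, compared to 0.556%, and 0 in H460R, compared to 0.487% higher and 0.492% lower.

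**Figure D2:**
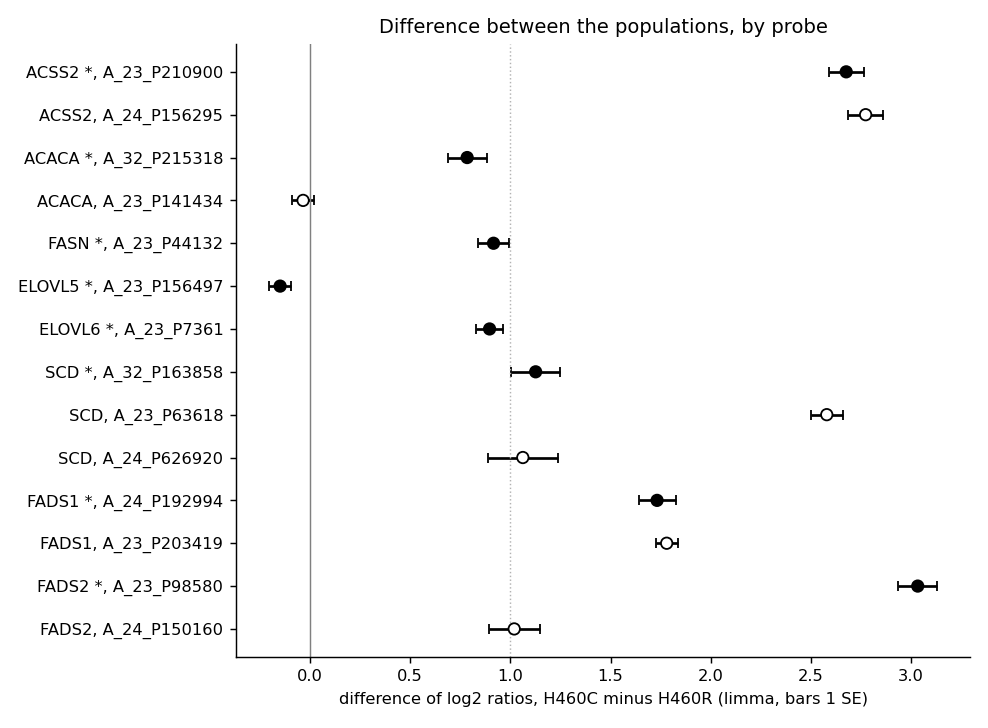
Difference between the log2 ratios of H460C and H460R (horizontal axis, bars 1 SE from limma) for each probe, with filled points for the brightest probe of a gene and a dotted line at 1. FADS2 (3.03) and both ACSS2 probes (2.68 and 2.77) lie farthest to the right, whereas ELOVL5 (-0.15) and the second ACACA probe (-0.03) lie left of 0.

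Other lipid gene lists were read in the same way, each gene at its brightest probe. Their limma counts stand beside 36.5% higher and 34.5% lower over all gene names in H460C, and 36.5% and 32.5% in H460R, and no list was tested against these shares. Of 17 tested genes of lipogenic control, which hold the SREBP factors, their regulators and related receptors, limma called 3 higher and 8 lower in H460C, and the median was -0.07. INSIG1, a sterol-regulated protein that retains SREBP in the endoplasmic reticulum, was the gene called by Rank Products, at 2.85 in H460C (FDR 0.019) and 0.66 ± 0.09 in H460R. Among the others, INSIG2 was 0.68 (0.17 at its other probe) and PPARG -1.04 in H460C. SREBF1 and SREBF2, named after their values were seen because they encode the SREBP factors, were 0.09 and 0.15 in H460C and -0.26 ± 0.24 and -0.26 ± 0.04 in H460R. The other SREBF1 probe (A_24_P390784) read lower in both, at -0.52 in H460C and -0.39 in H460R (limma adjusted p = 0.000275 and 0.000835). In H460R 2 genes of this list were higher and 11 lower by limma.

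Of 21 genes that supply citrate, acetyl-CoA and NADPH, limma called 10 higher and 8 lower in H460C, against 7 higher and 10 lower in H460R, and Rank Products called 0 in either. ME1, the malic enzyme that makes NADPH, was 0.87 in H460C, and PGD, of the pentose phosphate pathway, was -0.997. The other ME1 probe read 0.33 in H460C. IDH1, the cytosolic isocitrate dehydrogenase, was -1.16 ± 0.15 in H460R. Of 15 other elongation and desaturation genes, limma called 9 higher and 3 lower in H460C and 7 higher and 3 lower in H460R, and Rank Products called 0. HACD3, a dehydratase of the elongation cycle, was high in both populations, at 1.86 in H460C and 1.60 ± 0.02 in H460R. HSD17B12, its ketoreductase, was 1.71 and 0.86 ± 0.08, and the other HSD17B12 probe read 0.97 and 0.25.

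Of 19 genes of fatty acid activation and glycerolipid assembly, 12 were higher and 4 lower in H460C by limma, against 6 and 4 in H460R, with 0 called by Rank Products. PLIN2, which coats lipid droplets, was 2.10 in H460C and -0.67 ± 0.09 in H460R. LPIN1, a phosphatidate phosphatase, was 1.82 and 0.02 ± 0.23. Of 11 uptake and binding genes, 7 were higher and 3 lower in H460C, against 5 and 5 in H460R. LPL, the lipase that frees fatty acids from lipoproteins, fell to -2.50 in H460C (Rank Products FDR 0.0158) and was -0.26 ± 0.06 in H460R.

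Of 26 fatty acid oxidation genes, limma called 12 higher and 9 lower in H460C, against 15 higher and 5 lower in H460R, and Rank Products called 0. ETFDH, which passes electrons from fatty acid oxidation to the respiratory chain, was 0.25 in H460C and 1.18 ± 0.03 in H460R. PPARGC1A, a coactivator of oxidative genes, was -0.81 and 1.01 ± 0.11, and its other probe read -0.11 and 1.01. In the other direction, CPT1C, of the carnitine palmitoyltransferase family, was 0.90 and -0.75 ± 0.11, and PPARD, a receptor that regulates oxidation genes, was 1.07 and 0.22 ± 0.03. The other PPARD probe read only 0.16 in H460C (limma adjusted p = 0.0629) and -0.04 in H460R. All 15 sterol synthesis genes were higher in H460C by limma, with a median of 1.91, and HMGCS1 (3.83), SQLE (2.72), IDI1 (2.52) and SC5D (2.40) passed Rank Products. At other probes, HMGCS1 read 3.53 in H460C and SC5D read 2.37 and 1.53. In H460R the median of the sterol genes was 0.10.

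**Figure D3:**
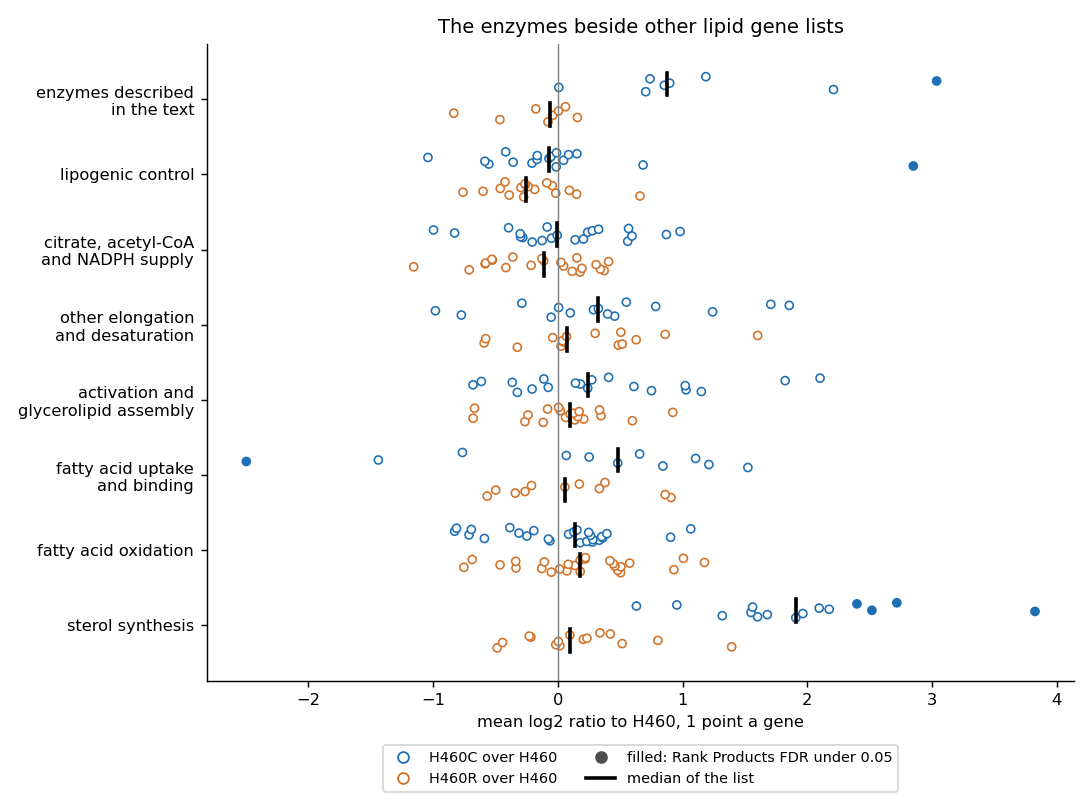
Mean log2 ratio to H460 (horizontal axis) of each gene of 8 lists, blue in H460C and orange in H460R, filled where Rank Products called it, with the median of each list as a black bar. The H460C median was 0.88 for the enzymes described here and 1.91 for sterol synthesis, and between -0.07 and 0.48 for the other lists.

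The genes whose 4 replicate ratios lay nearest to those of FASN, by Euclidean distance among all gene names, were HES6 (0.029), DNAAF3 (0.066), S1PR5 (0.069) and GCH1 (0.071), after a sequence with an accession only (0.024). Nearest to SCD at its brightest probe were CKS1B (0.254), NUF2 (0.254), H2AZ2 (0.259) and DHCR7 (0.263), again after a sequence with an accession only (0.072). DHCR7, a reductase of late cholesterol synthesis, was 1.32 in H460C and 0.02 in H460R.

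Over the settings in which a test could be made, ACSS2 stayed between 1.99 and 2.47 in H460C, ELOVL6 between 0.80 and 1.03, ACACA between 0.37 and 0.97, FASN between 0.29 and 1.18, FADS1 between 0.31 and 1.49, SCD between 0.87 and 1.94, and FADS2 between 2.02 and 3.74. ELOVL5 lay between -0.18 and 0.19. In H460R, ACSS2 stayed below 0, between -0.69 and -0.24, and FADS1 did so between -1.59 and -0.08, while ELOVL5 stayed above 0. FASN ran from -0.59 to 0.24, and ACACA, ELOVL6, FADS2 and SCD also took both signs.

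**Figure D4:**
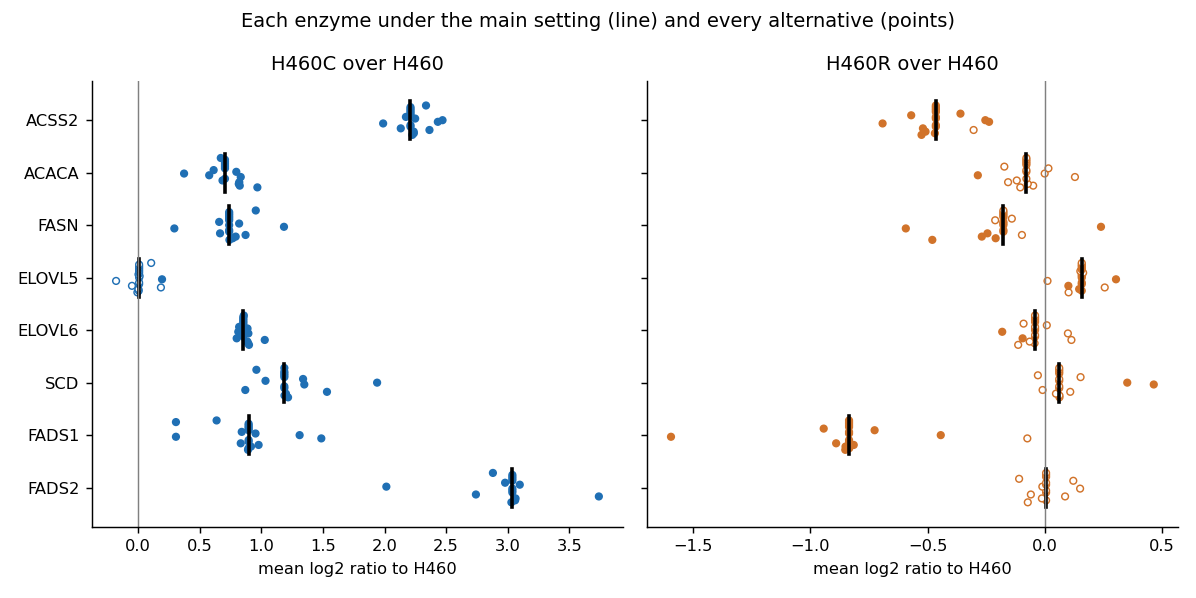
Mean log2 ratio to H460 (horizontal axes) of the 8 genes in H460C (left) and H460R (right), with a black line for the value given in the text and points for the alternative settings, filled where limma passed an adjusted p of 0.05. In H460C the points lie above 0, except for ELOVL5, whose points lie on both sides. In H460R the points of ACACA, FASN, ELOVL6, SCD and FADS2 lie on both sides of 0.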

How the data were processed

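Scanning and spot extraction were done by the authors in Agilent's Feature Extraction, version 10.1.1.1. Used here as deposited were the median intensities of spots and local background, without normalization, and the deposited 0 or 1 marks for saturation, outliers and signal above background. The authors' log10 ratio and their processed table of log2 ratios served as alternatives. In 1 array the log10 ratios had lost their decimal points and were divided by 10 to the power of 9. Background was corrected by normexp (offset 50), outlier spots were set to missing, ratios were normalized by loess, and spots were averaged by probe and dye-swap arrays by replicate. Probes had at least 0.5 of their spots well above background in every channel of a population. Rank Products used the exact distribution of 2 ranks with Benjamini-Hochberg adjustment (FDR 0.05), and limma was two-sided, with 2 residual and 3.27 prior degrees of freedom. P-values were adjusted over every probe past the filter. Software was R 4.3.3 with the packages limma (3.58.1) and data.table (1.17.8), and both tests were tested on simulated data. A GRCh38.p14 symbol was found for 23958 of the 25074 probes that carry a RefSeq name. A gene was read at its brightest probe. In the other lists, genes were named when Rank Products called them, or as the 2 highest and 2 lowest of a list in a population, of which some are given, and by nearness to FASN and SCD. Members, lists and tests were chosen with earlier results of these data known. Columns without a sample numbered 0. The result of 1 marker gene is not reported here.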

Additional observations from a re-analysis of the deposited data

Results flagged for a closer look

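The effect over H460 differed between H460C and H460R for 7 of the 8 genes, by limma's test of the difference itself, at the brightest probe of each. H460C minus H460R was 3.03 for FADS2, 2.68 for ACSS2, 1.73 for FADS1, 1.13 for SCD, 0.92 for FASN, 0.90 for ELOVL6 and 0.78 for ACACA on the log2 scale. The FADS2 value sets H460C in Cy5 alone, with a saturated channel, against H460R in both dyes. For SCD, H460C replicate 1 was also read in Cy5 alone. At the other probes, the difference was -0.03 for ACACA (limma adjusted p = 0.623) and 1.02 for FADS2. It was 1.06 and 2.58 for SCD, 1.78 for FADS1 and 2.77 for ACSS2. The same test passed for 28% of all gene names in this direction. With 2 replicates a population, no sample could be tested as lying far from the others.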

How the results depend on the processing

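The 1 gene that Rank Products called higher in H460C became 7 by limma, 2 by limma with a minimum log2 ratio of 1, 2 without the filter on dim probes and 2 with a stricter one (which tested 7 genes). It became 0 with the software's log ratio, with saturated spots set to missing (7 genes measured) and without the array of H460C replicate 1 in Cy5 (6 genes measured). The 1 gene called was ACSS2 in place of FADS2 on the Cy3 arrays (6 genes measured) and with the mean over probes. FADS2 had no test without saturated spots or without that array, and for the other changes the cause was not tested. In H460R, limma in place of Rank Products gave 1 higher and 3 lower in place of 0 and 0, and Rank Products on the Cy3 arrays gave 1 lower. By limma in H460R, the 1 higher became 0 with the software's log ratio, with median centring and without the array named above, and 2 on the Cy3 arrays and with the mean over probes. The 3 lower became 1 with median centring. FASN in H460R turned from -0.18 to 0.24 on the Cy3 arrays. Leaving out each replicate in turn, with the lone sample assumed to vary like the other population, gave 7 higher and 0 lower in H460C and between the populations, and 0 to 1 higher and 2 to 3 lower in H460R. For H460C minus H460R, a minimum difference of 1 took the 7 higher genes to 3, and ELOVL5 made 1 lower without background subtraction, in the authors' processed table and with the stricter filter. The replicate block and the H460C replicates averaged into 1 sample left these limma counts at 7 and 0 in H460C, 1 and 3 in H460R and 7 and 0 between the populations. Deviations of same-numbered replicates of the 2 populations correlated across 26014 probes with r = 0.206, but with 2 numbers, which no label ties to a shared day or batch, the samples were not taken as paired. Rank Products could not be run with 1 ratio left. The settings that keep outlier spots, drop saturated ones or leave out 1 array were chosen after seeing the data. The few arrays, saturated red signals and 1 H460 RNA sample limit all values.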
